A study of Homo sapiens with 4 samples.

Results

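A set of 9 genes best known as targets of interferon-gamma was followed in HT-29 cells with and without TRIM40. The genes were picked by name from the 27685 genes of the deposited transcript tables and not by a threshold on their values. This choice, like that of the comparison lists, was made with earlier results of these data known. The 9 genes were 5 guanylate-binding protein genes (GBP1 to GBP5) and 4 genes outside that family: CIITA, CD74, HLA-DRA and IDO1. HT-29 is a human cell line derived from a colorectal adenocarcinoma and serves as a model of colonic epithelium. The 2 groups were wild-type HT-29 cells carrying a control vector and HT-29 cells stably overexpressing TRIM40, an E3 ubiquitin ligase of the tripartite motif family, with a Myc tag. The study's methods describe retroviral and lentiviral vectors, and selection with puromycin after retroviral transduction. They name no further treatment of the RNA-seq cells. Whether the cells were 1 clone or a pool is not given in the sources used here. RNA-seq was performed in 2 independent experiments, each with 1 control and 1 Myc-TRIM40 library, 4 libraries in all.

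Interferon-gamma binds a receptor made of IFNGR1 and IFNGR2, which signals through the kinases JAK1 and JAK2. Signalling acts on GAS elements in promoters and induces the transcription factor IRF1, which helps switch on later genes such as the GBPs, CIITA and IDO1. CIITA in turn is the master regulator of MHC class II genes, here CD74 and HLA-DRA. Type I interferon acts instead mainly through the ISRE, an element that several GBP promoters also hold. In the inflamed gut, epithelial cells exposed to interferon-gamma are known to make GBP1, MHC class II and IDO1.

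Library totals lay between 60954602 and 67424698 reads. TRIM40 had 0 reads in both control libraries, 272646 with Myc-TRIM40 in experiment 1 and 110665 in experiment 2. All 8 markers of colon epithelium, among them EPCAM, KRT20, CDX2 and VIL1, passed the filter on low counts, with a summed level of 11286 to 16377 CPM (counts scaled to a common library size, with TMM). KRT8 alone was at 6220 to 8683 CPM, and CDX2 was at 2.86 to 3.27 CPM. The 9 leukocyte markers summed to 5.83 CPM in control cells and 10.4 CPM with Myc-TRIM40 in experiment 1, and to 6.67 and 5.50 CPM in experiment 2. The leukocyte genes MS4A1, CSF1R and CD3E had 0 reads in every library, and PTPRC had between 0 and 4. ITGAM (106 to 390 reads), CD14 (148 to 297 reads) and CD79A (6 to 18 reads) passed the filter on low counts. The 6 fibroblast and endothelial markers summed to between 2.35 and 6.56 CPM, and COL1A1 among them had 123 to 352 reads.

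Of the 9 genes, 5 were detected in every library: GBP1, GBP2, GBP3, GBP4 and CD74. Each of these had at least 23 reads in its lowest library, and these 5 passed edgeR's filter on low counts. GBP5 was above the floor of 3 reads in 1 library only. CIITA, HLA-DRA and IDO1 had 0 reads in all 4 libraries, which allows a level of up to 0.0467 to 0.0491 CPM per library. No fold was computed for these 3 genes, since both groups were at the floor. In such bulk libraries, fewer cells expressing a gene and less of its RNA per cell cannot be told apart. No detected member overlapped another gene with at least 10 reads in some library.

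**Figure D1:**
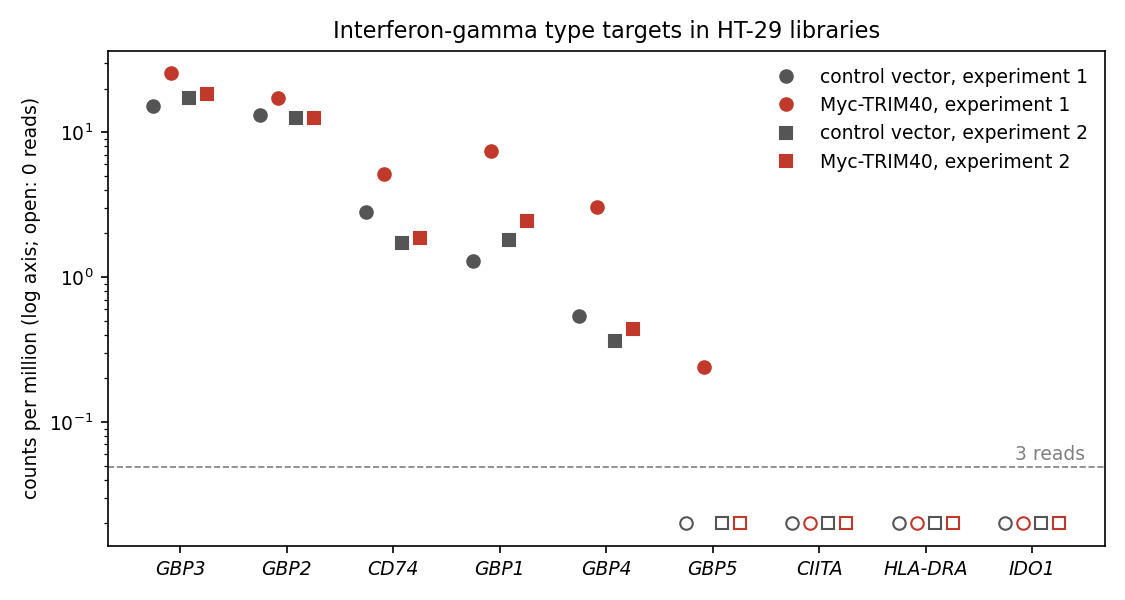
Level of each of the 9 genes in each library, in CPM on a log axis; circles are experiment 1, squares experiment 2, and open symbols mark 0 reads. The Myc-TRIM40 library of experiment 1 is the highest for all 6 genes with reads, and CIITA, HLA-DRA and IDO1 have none.

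Compared per length as TPM in the control libraries, GBP3 was the most abundant of the set, with 10.3 TPM ± 0.90 (SD, n = 2). GBP2 followed with 5.90 ± 1.18 TPM, CD74 with 2.95 ± 1.49, GBP1 with 0.94 ± 0.058 and GBP4 with 0.14 ± 0.064. No neighbours in this order overlapped in the control libraries: the lowest GBP3 library (9.64 TPM) stood above the highest of GBP2 (6.74), and the lowest of CD74 (1.89) above the highest of GBP1 (0.98). In the Myc-TRIM40 libraries the order of the means was the same, at 16.4 ± 4.25, 7.85 ± 2.01, 5.10 ± 3.48, 3.58 ± 2.67 and 0.63 ± 0.68 TPM (SD, n = 2). There GBP2 (9.27 and 6.43 TPM) overlapped CD74 (7.57 and 2.64 TPM), and CD74 overlapped GBP1 (5.47 and 1.69 TPM), while GBP3 (19.4 and 13.4 TPM) stayed above GBP2 and GBP4 (1.11 and 0.15 TPM) below GBP1. TPM is used here for levels alone, since it moved the median log2 ratio of all tested genes to 0.07 in experiment 1 and 0.38 in experiment 2, against 0.00 and 0.03 for CPM.

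The GBPs are large GTPases that coat intracellular bacteria and damaged vacuoles and promote inflammasome signalling. All 5 lie in 1 cluster on chromosome 1, from 89472360 to 89738544 in hg19, the build named in the submitters' processing notes, in the order GBP3, GBP1, GBP2, GBP4 and GBP5. Promoters were looked up for all 9 genes in RefSeq sequences of GRCh38.p14. The table matched GBP1, GBP3, GBP4 and CD74. Among these genes, GBP1 and GBP4 had the widest differences, GBP3 is their most abundant relative, and CD74 comes from outside the family. All promoter sequences that were found are shown. Each runs 5′ to 3′ on the minus strand, from 250 bases before the start of the gene to 50 bases after it. Capitals mark matches to the ISRE core (GAAA, any 2 bases, GAAA), the GAS element TTCNNNGAA and the CCAAT box, each searched on both strands.
GBP1, chr1:89065159-89065458: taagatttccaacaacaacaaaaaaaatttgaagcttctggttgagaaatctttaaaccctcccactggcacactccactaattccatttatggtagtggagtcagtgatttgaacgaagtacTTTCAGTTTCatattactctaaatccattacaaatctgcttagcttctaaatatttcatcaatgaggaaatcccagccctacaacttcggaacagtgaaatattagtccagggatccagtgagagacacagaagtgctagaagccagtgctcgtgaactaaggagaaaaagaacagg
GBP4, chr1:89198893-89199192: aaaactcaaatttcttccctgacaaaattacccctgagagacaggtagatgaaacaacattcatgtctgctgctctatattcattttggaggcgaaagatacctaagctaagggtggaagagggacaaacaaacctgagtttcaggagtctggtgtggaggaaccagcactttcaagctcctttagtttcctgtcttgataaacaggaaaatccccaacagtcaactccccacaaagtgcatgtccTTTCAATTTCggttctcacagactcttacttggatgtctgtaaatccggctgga
GBP3, chr1:89022817-89023116: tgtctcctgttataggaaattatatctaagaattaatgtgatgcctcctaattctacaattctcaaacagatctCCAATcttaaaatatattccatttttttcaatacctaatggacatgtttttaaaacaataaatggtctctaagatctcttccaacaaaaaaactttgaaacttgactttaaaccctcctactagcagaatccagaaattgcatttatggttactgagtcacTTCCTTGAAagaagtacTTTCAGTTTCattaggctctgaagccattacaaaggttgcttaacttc
CD74, chr5:150412861-150413160: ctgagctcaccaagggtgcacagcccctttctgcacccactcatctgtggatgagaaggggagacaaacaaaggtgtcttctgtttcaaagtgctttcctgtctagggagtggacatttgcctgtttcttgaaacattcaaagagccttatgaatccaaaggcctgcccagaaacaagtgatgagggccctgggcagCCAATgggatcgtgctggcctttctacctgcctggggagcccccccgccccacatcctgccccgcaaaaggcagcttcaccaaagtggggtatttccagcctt

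An ISRE core was found in all 3 GBP promoters and in 3.57% of the 35116 promoters of the table. On the strand shown it read TTTCAGTTTC in GBP1, from 127 to 118 bases before the start, and TTTCAATTTC in GBP4, from 4 bases before the start to base 6 of the transcript. In GBP3 the same letters as in GBP1 stood at bases 3 to 12 of the transcript. GBP1 and GBP3 shared an unbroken run of 19 bases around it, gaagtactttcagtttcat. GBP3 also held a GAS match, TTCCTTGAA, from 15 to 7 bases before its start, as did 7.66% of all promoters, and both elements together occurred in 0.44%. CD74 held neither, but had a CCAAT box from 53 to 49 bases before its start. GBP3 had one 176 to 172 bases before its start, and 34.6% of all promoters had one. No match overlapped another.

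GBP1 (Entrez gene 2633), a guanylate-binding protein that limits intracellular pathogens in epithelium, had 79 reads in control and 469 in Myc-TRIM40 cells in experiment 1. Experiment 2 gave 115 and 156 reads. Both Myc-TRIM40 libraries were above both control libraries, and that of experiment 1 stood far above the other 3. Normalized by TMM, GBP1 was 5.78-fold higher in experiment 1 (95% interval 4.55 to 7.43) and 1.34-fold higher in experiment 2 (1.05 to 1.73). These intervals are exact conditional binomial ones and cover counting error only. With the experiment as a block, its log2 fold change was 1.48 (SE 0.48, n = 2 per group, edgeR adjusted p = 0.888, unadjusted p = 0.0144). The change did not pass the threshold of 0.05 once adjusted over all 14868 genes tested.

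GBP4 (Entrez gene 115361), a family member that forms part of the coat on cytosolic bacteria, had 33 reads in control and 192 in Myc-TRIM40 cells in experiment 1. Experiment 2 gave 23 and 28 reads. The Myc-TRIM40 library of experiment 2 lay below the control of experiment 1 in CPM (0.44 against 0.54), so the groups overlapped. The fold was 5.67 (3.90 to 8.47) in experiment 1, close to that of GBP1, and 1.21 (0.67 to 2.19) in experiment 2, where the interval holds 1, so a difference was not detectable at this depth. Its log2 fold change was 1.48 (SE 0.59, n = 2 per group, edgeR adjusted p = 0.888, unadjusted p = 0.0356). In TPM it was the lowest of the 5 genes in all 4 libraries.

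GBP5 (Entrez gene 115362), which binds GTP and promotes NLRP3 inflammasome assembly, had 15 reads with Myc-TRIM40 in experiment 1 and 0 in the other 3 libraries. Set against the floor of 3 reads in the control library of experiment 1, GBP5 was 4.87-fold higher there. This is a lower bound only if the 15 reads are taken as exact. Their Poisson interval runs from 8.4 to 24.7 reads, so counting error also allows a fold below 4.87. GBP5 did not pass the filter on low counts, and in experiment 2 both libraries were at the floor. All 15 reads were assigned to its transcript variant 1.

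GBP3 (Entrez gene 2635), with 5 annotated transcripts, had 923 reads in control and 1602 in Myc-TRIM40 cells in experiment 1, and 1092 and 1176 reads in experiment 2. As for GBP1, the groups did not overlap. The fold was 1.69 (1.56 to 1.83) in experiment 1 and 1.07 (0.98 to 1.16) in experiment 2. The log2 fold change was 0.43 (SE 0.24, n = 2 per group, edgeR adjusted p = 0.888). GBP2 (Entrez gene 2634), a prenylated GBP that reaches vacuole membranes, had 797 and 1076 reads in experiment 1 and 803 and 801 in experiment 2. Its 2 control libraries and the Myc-TRIM40 library of experiment 2 were almost level, and only that of experiment 1 stood apart. The fold was 1.31 (1.20 to 1.44) in experiment 1 and 0.99 (0.90 to 1.09) in experiment 2, with a log2 fold change of 0.19 (SE 0.23, n = 2 per group, edgeR adjusted p = 0.903). In experiment 2 its log2 ratio was -0.02 in CPM and 0.34 in TPM, or -0.04 once the median of all genes was subtracted.

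**Figure D2:**
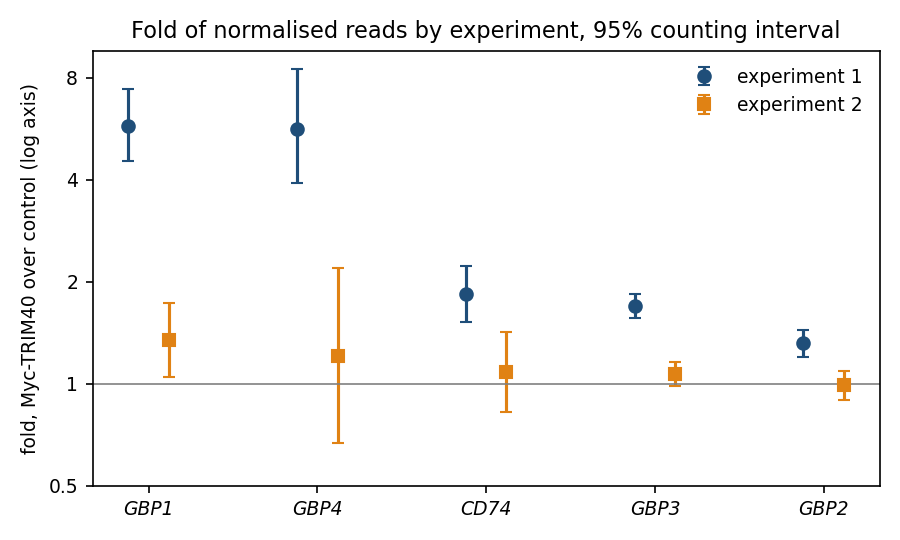
Fold of normalised reads, Myc-TRIM40 over control, for the 5 tested genes in each experiment on a log axis; bars are 95% exact counting intervals and the grey line marks no difference. GBP1 and GBP4 stand near 5.7-fold in experiment 1, and every gene lies lower in experiment 2 than in experiment 1.

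Summed over the 5 GBPs, the level was 30.0 CPM without and 53.5 CPM with Myc-TRIM40 in experiment 1, and 31.9 and 33.6 CPM in experiment 2. As a share of their summed TPM within a library, GBP3 made up between 54.8% and 61.8%. GBP1 made up 4.78% without and 15.5% with Myc-TRIM40 in experiment 1, and 6.20% and 7.81% in experiment 2, while the share of GBP2 was lower in the Myc-TRIM40 library than in the control of each experiment (36.0% and 26.2%, then 32.1% and 29.7%). Reads could in part be exchanged between relatives: in GENCODE 29 transcripts, 3.11% of the 50-base windows of GBP1 also occurred in GBP3 and 1.07% in GBP2, and at 100 bases no window of any of the 5 genes was shared.

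The reads of GBP3 were divided among its transcripts differently from library to library. Transcript variant 1 held the largest share in each library, 59.7% without and 29.8% with Myc-TRIM40 in experiment 1, and 75.3% and 50.5% in experiment 2. That is 551 and 478 reads, then 822 and 594, while the gene total was higher in both Myc-TRIM40 libraries. Variant 3 had 21 and 315 reads in experiment 1, then 107 and 137. The non-coding variant 5 had 83 and 337 reads, then 125 and 205. Variant 2 had 233 and 447 reads, then 14 and 202, so its control libraries lay far apart. These are model estimates of how reads divide among overlapping transcripts, and were not tested.

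**Figure D3:**
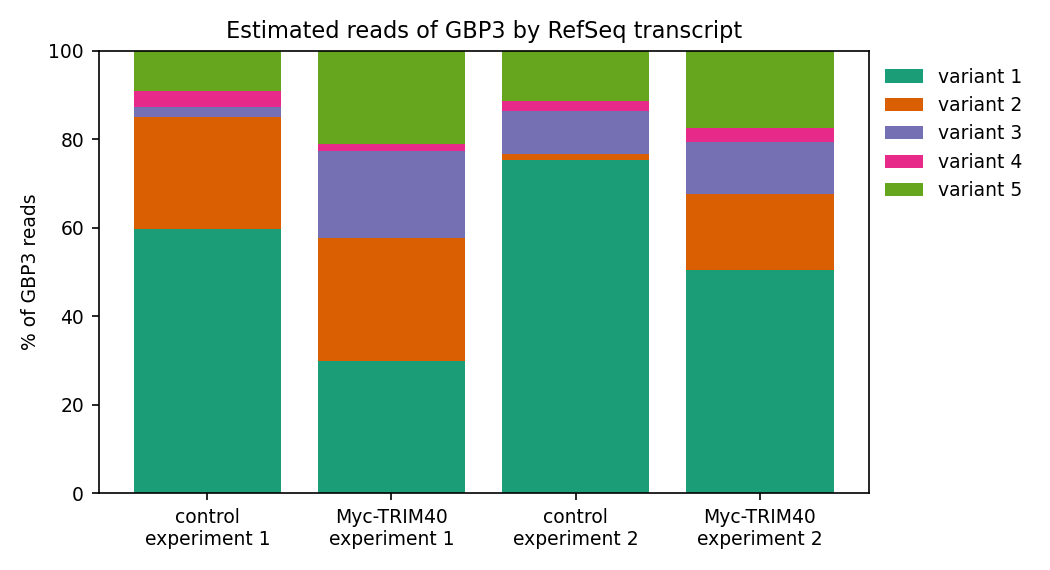
Share of the estimated GBP3 reads given to each of its 5 RefSeq transcripts, in % and stacked to 100, for each library. Variant 1 holds 59.7% without and 29.8% with Myc-TRIM40 in experiment 1, and 75.3% and 50.5% in experiment 2.

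CD74, CIITA and HLA-DRA belong to MHC class II presentation. CD74 (Entrez gene 972, chromosome 5 from 149781200 to 149792499 in hg19) encodes the invariant chain, which guards the class II groove until peptide is loaded and is also a receptor for the cytokine MIF. It had 171 reads in control and 322 in Myc-TRIM40 cells in experiment 1, and 109 and 119 in experiment 2. The control library of experiment 1 was above the Myc-TRIM40 library of experiment 2, so the groups overlapped. The fold was 1.83 (1.52 to 2.22) in experiment 1 and 1.08 (0.83 to 1.42) in experiment 2, with a log2 fold change of 0.50 (SE 0.32, n = 2 per group, edgeR adjusted p = 0.888). The reads went to transcript variant 2 in 3 libraries, while variant 1 took 12.7% in the Myc-TRIM40 library of experiment 1. Of the leukocyte markers, 3 were tested. ITGAM had 198 and 390 reads in experiment 1 and 106 and 118 in experiment 2, CD14 had 148 and 243, then 297 and 219, and CD79A had 6 and 18, then 17 and 14. All 3 were thus higher with Myc-TRIM40 in experiment 1, and ITGAM alone in experiment 2. PTPRC had 4, 0, 0 and 3 reads in the same order, and the part of these markers in the result was not tested.

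CIITA (Entrez gene 4261, chromosome 16 from 10971055 to 11018840 in hg19) had 0 reads over its 4 transcripts, and HLA-DRA (Entrez gene 3122, chromosome 6 from 32407619 to 32412826), the alpha chain of HLA-DR, also had 0. In a list of 17 other genes of class II presentation, 8 had 0 reads in every library: HLA-DRB1, HLA-DRB5, HLA-DPA1, HLA-DPB1, HLA-DQA1, HLA-DQA2, HLA-DQB1 and HLA-DQB2. Every classical class II chain of the list was thus without reads in both groups. The 9 others were tested, and 0 passed in either direction in edgeR, whether the p of 0.05 was adjusted or not, nor did any in DESeq2. Over all genes, edgeR had 3.41% higher and 1.13% lower at the unadjusted p, so 0 of 9 is near those shares. The median log2 fold change of the 9 was -0.01, against 0.04 over all genes tested. HLA-DOB, a chain of the HLA-DM inhibitor HLA-DO, had 16 and 86 reads in experiment 1 and 26 and 31 in experiment 2, with a log2 fold change of 1.31 (SE 0.64, edgeR adjusted p = 0.888). CTSS, the protease that trims the invariant chain, had 177 and 548 reads and then 282 and 274. HLA-DMB, a chain of the peptide editor HLA-DM, was lower with Myc-TRIM40 in both experiments, with 83 and 58 reads, then 76 and 57 (log2 fold change -0.49, SE 0.39, edgeR adjusted p = 0.888). RFX5, a factor that recruits CIITA to class II promoters, was present at 2794 to 4072 reads, with a log2 fold change of 0.25 (SE 0.22, edgeR adjusted p = 0.888). Its partners RFXANK and RFXAP had log2 fold changes of -0.40 (SE 0.22, edgeR adjusted p = 0.888) and -0.21 (SE 0.22, edgeR adjusted p = 0.899).

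IDO1 (Entrez gene 3620) starts tryptophan breakdown along the kynurenine pathway and restrains T cells, and it had 0 reads in every library. Of 15 other genes of tryptophan use and the kynurenine pathway, 3 had 0 reads everywhere (IDO2, KMO and ACMSD), 11 were tested, and 0 passed in either direction in edgeR or DESeq2, adjusted or not. That is near the shares of all genes in edgeR at the unadjusted p, 3.41% higher and 1.13% lower. QPRT, which makes the NAD precursor nicotinic acid mononucleotide, had 675 and 1188 reads in experiment 1 and 582 and 549 in experiment 2. AFMID, a formamidase of the kynurenine pathway, had 1864 and 1631 reads, then 2611 and 1958 (log2 fold change -0.33, SE 0.21, edgeR adjusted p = 0.888). WARS, a tryptophanyl-tRNA synthetase that interferon-gamma induces in many cells, had 6934 and 9650 reads in experiment 1 and 5621 and 6484 in experiment 2, with a log2 fold change of 0.32 (SE 0.22, edgeR adjusted p = 0.888).

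Across the set, 0 of 5 tested members passed an adjusted p of 0.05 in edgeR in either direction, where 0.0404% of all genes tested passed as higher and 0.0202% as lower. At an unadjusted p under 0.05, 2 of 5 were higher (GBP1 and GBP4), where 3.41% of all genes were, and 0 were lower, where 1.13% were. DESeq2 also called 0 of 5, where 0.303% of all genes were called higher, and at an unadjusted p under 0.05 it had 1 (GBP1), where 2.37% of all genes did. The log2 ratio was above 0 for 5 of 5 in experiment 1, where 50.2% of all genes had that, and for 4 of 5 in experiment 2, where 52.1% did. It was above 0 in both experiments for 4 of 5 members, where 28.6% of all genes had that, and GBP2 was the exception. Both Myc-TRIM40 libraries were above both control libraries for 2 of 5, where 11.0% of all genes had that. In experiment 1, 4 of the 5 tested members were at least 1.5-fold higher, where 9.79% of all genes were. In experiment 2, 0 of 5 were, where 14.7% of all genes were, and so 0 of 5 did so in both experiments, where 2.76% of all genes did. The median log2 ratio of the 5 was 0.87 in experiment 1 and 0.11 in experiment 2, against 0.00 and 0.03 over all genes. The members were chosen with earlier results of these data known, so the comparisons with all genes are descriptions. An exact permutation test of 2 against 2 libraries that ignores the pairing cannot reach a two-sided p below 0.333. Swaps within each experiment allow fewer arrangements still, and neither test was used. With 1 library per group in an experiment, the difference between the experiments was not tested.

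**Figure D4:**
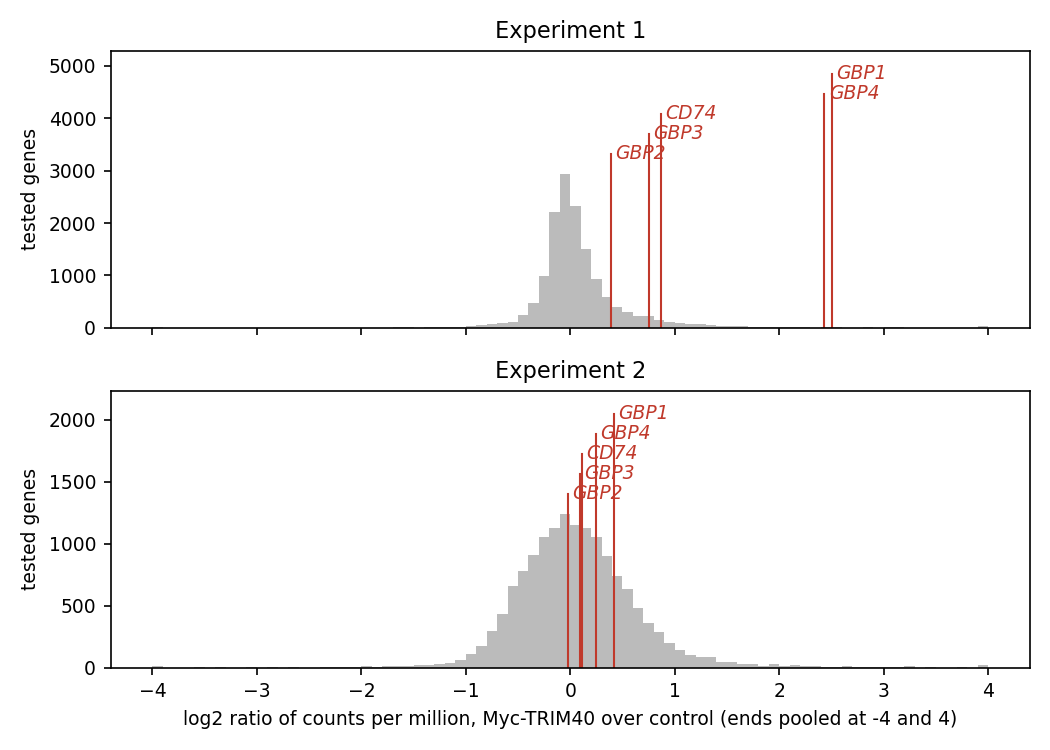
Histogram of the log2 ratio of CPM, Myc-TRIM40 over control, over the 14868 genes tested in each experiment, with the 5 tested members as red lines and the ends pooled at -4 and 4. In experiment 1 all 5 lie right of the peak, between 0.39 and 2.50, and in experiment 2 they lie within the bulk of genes, between -0.02 and 0.42.

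In experiment 1, 90% of all genes tested lay between log2 ratios of -0.41 and 0.96, and in experiment 2 between -0.76 and 1.03. GBP1 was at percentile 99.0 of all genes in experiment 1 and 77.5 in experiment 2, and GBP4 at 99.0 and 66.9. CD74 went from percentile 94.3 to 56.6, GBP3 from 92.9 to 55.2 and GBP2 from 85.6 to 46.1. The control libraries of the 2 experiments differed by a log2 ratio of 0.47 for GBP1, 0.18 for GBP3, -0.05 for GBP2, -0.54 for GBP4 and -0.70 for CD74 (experiment 2 minus experiment 1). The Myc-TRIM40 libraries differed by between -0.46 (GBP2) and -2.73 (GBP4), and all 5 were lower in experiment 2. TRIM40 itself was 4349 CPM in experiment 1 and 1721 CPM in experiment 2, and its part in that difference was not tested.

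Upstream of these genes, IFNG, which encodes the cytokine itself, had 0 reads in every library. Its receptor chains were present, IFNGR1 at 3802 to 5864 reads and IFNGR2 at 1919 to 2499, with log2 fold changes of 0.17 (SE 0.22) and -0.02 (SE 0.22). The kinases JAK1 and JAK2 had log2 fold changes of 0.34 (SE 0.22) and 0.34 (SE 0.28). IRF1 had 2055 and 3902 reads and then 1783 and 1849, 1.85-fold (1.75 to 1.95) and 1.03-fold (0.96 to 1.10). SOCS1, a feedback inhibitor of JAK kinases, had 0 and 25 reads in experiment 1 and 6 and 10 in experiment 2, too few to be tested. IFNGR1, IFNGR2, JAK1, JAK2 and IRF1 did not pass in edgeR (adjusted p from 0.888 to 0.996) or in DESeq2, adjusted or not. Their list held 12 signalling genes, of which 9 were tested. In edgeR 0 passed an adjusted p of 0.05, and 1 was higher at an unadjusted p under 0.05, where 3.41% of all genes were. DESeq2 called 1 higher, where 0.303% of all genes were. At least 1.5-fold higher in both experiments was 1 of the 9, where 2.76% of all genes were. These counts come from outside the genes named here.

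A list of 14 other genes that interferon-gamma induces had 10 tested members, with a median log2 ratio of 0.95 in experiment 1 and -0.14 in experiment 2. In edgeR 0 passed an adjusted p of 0.05, while ICAM1, SECTM1 and ETV7 were higher at an unadjusted p under 0.05 and none was lower, as many as in DESeq2, which also called 0. Of all genes, 3.41% were higher at the unadjusted p in edgeR and 2.37% in DESeq2. ICAM1, an adhesion molecule for leukocytes, had 340 and 778 reads and then 263 and 375, folds of 2.23 (1.96 to 2.54) and 1.41 (1.20 to 1.66). ETV7 had 6 and 268 reads and then 17 and 30 (log2 fold change 3.02, SE 0.98, edgeR adjusted p = 0.888). The chemokine CXCL10 had 24 and 324 reads in experiment 1 and 42 and 39 in experiment 2. In experiment 1, 7 of the 10 were at least 1.5-fold higher, where 9.79% of all genes were. In experiment 2, 1 was, where 14.7% of all genes were. In both experiments 1 was (ETV7), where 2.76% of all genes were. The relatives of the GBPs, namely GBP6, GBP7, GBP1P1, IRGM, IRGQ and the atlastins ATL1 to ATL3, had 3 genes at 0 reads everywhere (GBP6, GBP7 and GBP1P1) and 4 tested, of which 0 passed in edgeR or DESeq2, adjusted or not. With 4 genes, 0 is near those shares. The median log2 ratios of the 4 were 0.03 and -0.12.

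For comparison, 15 genes known mainly as targets of type I interferon, such as OAS2, MX2 and RSAD2, were all tested. Their median log2 ratio was 3.75 in experiment 1 and 1.14 in experiment 2. All 15 were at least 1.5-fold higher in experiment 1 and 10 were in both experiments, against 4 and 0 of the 5 members. Of all genes tested, 9.79% and 2.76% were. In edgeR 0 of the 15 passed an adjusted p of 0.05, and 14 were higher at an unadjusted p under 0.05, where DESeq2 called 4 and had 12. Over all genes, edgeR had 0.0404% and 3.41% as higher at these thresholds, and DESeq2 0.303% and 2.37%. In experiment 1 the lowest of the 15 was OASL at 2.11, and the next was IFIT2 at 2.15, beside 2.50 for GBP1 and 2.43 for GBP4. The difference between the 2 lists was not tested, and both were chosen with earlier results of these data known.

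**Figure D5:**
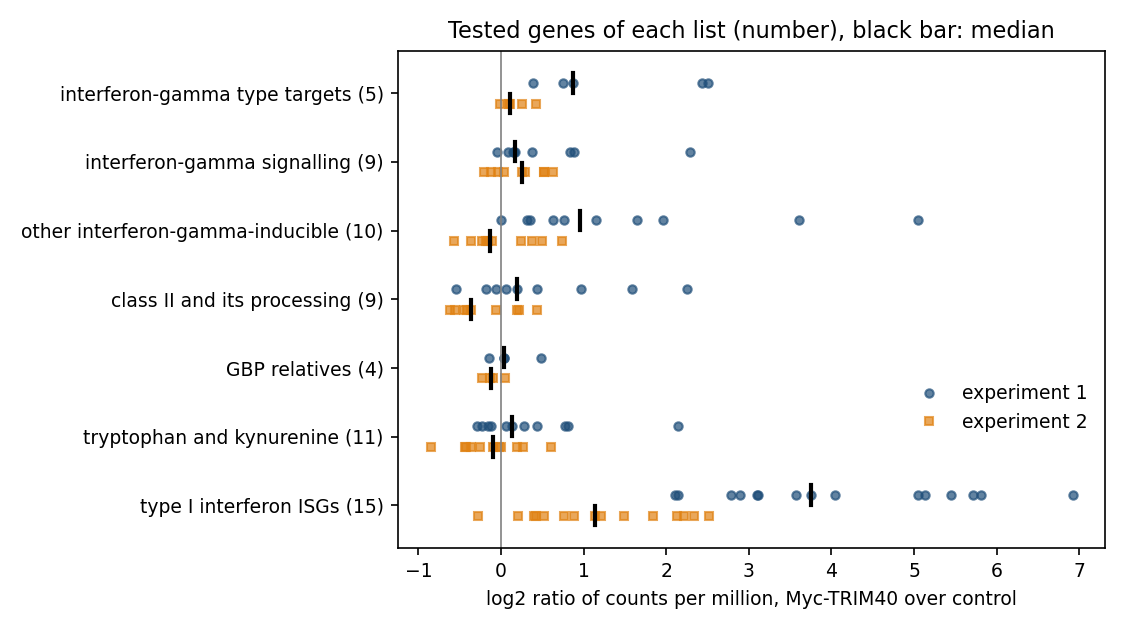
Log2 ratio of CPM, Myc-TRIM40 over control, for each tested gene of 7 lists in both experiments; black bars are medians and the number of tested genes is in brackets. The 5 tested members have medians of 0.87 and 0.11, and the type I interferon genes 3.75 and 1.14.

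The genes whose course over the 4 libraries was nearest to each member were found by Euclidean distance between centred log2 CPM values. For GBP1 they were SP110 (distance 0.21), SFMBT2 (0.24) and HLA-DOB (0.26), and for GBP4 they were IFIT2 (0.21), CSF1 (0.31) and SECTM1 (0.37). SP110, an interferon-inducible nuclear body protein, had 738 and 3737 reads in experiment 1 and 887 and 1230 in experiment 2, which is 2.30 and 0.46 as log2 ratios. IFIT2, an interferon-induced RNA-binding protein, had 750 and 3420 reads and then 513 and 597. The nearest to GBP3 was CPEB2 (0.033), to GBP2 MYZAP (0.040) and to CD74 LINC00319 (0.11). Among the members themselves, GBP2 and GBP3 were nearest (0.29), and GBP1 and GBP4 were 1.07 apart. In the control libraries GBP1 was higher and GBP4 lower in experiment 2 than in experiment 1. These are descriptions over 4 libraries, of which 2 share each experiment.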

How the data were processed

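RNA from 4 HT-29 libraries (TruSeq Stranded mRNA) was analysed. Per the labels, the authors used HISAT2 2.1.0 and StringTie 1.3.4d with hg19. What the authors deposited is an estimated count for each RefSeq transcript, rounded to whole reads and split among the transcripts of a gene. The authors also deposited FPKM, scaled by transcript length and library, and for experiment 2 TPM. Counting options and filters are not given in the sources used here.

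Transcripts were summed per gene (63714 to 27685). TPM of experiment 1 was computed from FPKM. The main test was edgeR 4.0.16 (glmQLFit, glmQLFTest, R 4.3.3) with TMM, filterByExpr (14868 genes), the experiment as a block and Benjamini-Hochberg adjustment. Same-numbered libraries deviated together (correlation 0.45 across genes), and each deposited table holds 1 experiment, which is where the pairing comes from. Log2 ratios within an experiment used TMM CPM with a prior count of 2, and folds used no prior. A level of 3 reads was taken as the floor. Intervals cover counting error only. Each SE of an edgeR log2 fold change is its absolute value divided by the square root of the quasi-likelihood F statistic.

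Alternatives were no block, DESeq2 1.42.0, upper-quartile normalization, no filter, limma 3.58.1 on log2(FPKM + 1) and log2(FPKM + 0.1), median-centred ratios, and each experiment left out. Members and lists were chosen with earlier results of these data known. Genes named were the 9 members, TRIM40, genes of signalling and class II control, of each list up to 4 tested genes with the largest change, and the 3 nearest genes of each member. WARS, OASL, RFXANK, RFXAP, the marker genes and genes named for having 0 reads fall outside this rule and were named after their values were seen. Some genes of the lists are not reported here. Promoters came from RefSeq (GRCh38.p14) and GBP transcript sequences from GENCODE 29, so no position was carried between builds. Figures were drawn with matplotlib 3.10.9, and Python 3.11.15 with scipy 1.17.1 was used for the rest.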

Additional observations from a re-analysis of the deposited data

How the results depend on the processing

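The count of members past an adjusted p of 0.05 was 0 higher and 0 lower in edgeR with the experiment as a block, with no replicate block, with upper-quartile normalization and with no filter, in DESeq2 and in limma on either FPKM scale. At an unadjusted p under 0.05 the count was 2 with the block, 1 without it, 1 in DESeq2, 1 with upper-quartile normalization, 1 in limma on each scale and 0 of 6 with no filter, which adds GBP5 (edgeR unadjusted p = 0.0684, adjusted p = 0.804). The log2 fold change of every tested member stayed above 0 in these 7 fits. GBP1 ranged from 0.76 to 1.67 and GBP4 from 0.25 to 1.95, lowest on log2(FPKM + 1), where the pseudocount shrinks genes of low FPKM, and highest without the replicate block. The adjusted p of GBP1 ranged from 0.714 to 0.9998. The median of the 5 ranged from 0.38 to 0.63 over the fits, and from 0.11 with experiment 1 left out to 0.87 with experiment 2 left out. GBP2 alone turned below 0, to -0.02, with experiment 1 left out. The number of members at least 1.5-fold higher in both experiments, 0, became 0 to 5 when 1 experiment was left out, and the 5 (GBP1, GBP3, GBP4, CD74 and GBP5 through its prior count) all come from experiment 1 alone. It was 0 on log2(FPKM + 1), log2(FPKM + 0.1) and median-centred ratios, and the count of members lower was 0 throughout. Leaving out an experiment leaves no residual degrees of freedom, so those values have no test. Depth limits GBP4, GBP5 and the 3 genes at 0 reads most.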
